A study of Capra hircus with 9 samples.

Results

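The cathepsins and cystatins described here are a set of lysosomal proteases and protease inhibitors, chosen by gene name from a table of read counts of the goat uterus. Of the 10 listed names, 8 are rows of the 25671-row table: the cathepsins CTSB, CTSL, CTSS, CTSZ, CTSH, CTSK and CTSD and the cystatin CST6. The other 2, CST3 and CSTB, have no row of that name, and rows that the deposited table describes as cystatin C and cystatin B are given separately under their locus identifiers. All 8 passed the filter on low counts. Polyadenylated RNA of Liaoning Cashmere goats was sequenced in 9 libraries, 3 each for days 6, 16 and 19. The labels give the tissue as uterus and the time as peri-implantation, name no treatment and no age, and leave the event unnamed from which days are counted. The series title names the endometrial epithelium and the treatment protocol the testis. Nothing in the labels says that the 3 libraries of a day come from separate animals. The p-values therefore measure only how far these libraries spread, which may be technical.

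Cathepsins are made as inactive precursors, are carried to lysosomes by mannose 6-phosphate receptors and are cut to their active form there. Most are cysteine proteases, and CTSD is an aspartic protease. Cystatins block cysteine cathepsins by binding in the active site: CST6 and cystatin C are secreted, and the stefins, such as cystatin B, stay in the cytosol. In the ruminant uterus, cathepsin L and cystatins are known as components of the secretions around implantation, and cathepsin S is known for antigen processing in immune cells.

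The libraries held 8712751 to 11074693 counts. The day 19 libraries differed among themselves. The chi-square per degree of freedom between replicate 1 and the other day 19 replicates was 140 and 124, against 22.6 between replicates 2 and 3 and 9.86 to 37.4 within the other days. Ribosomal protein genes held 2.42% of the counts of day 19 replicate 1, 6.61% of replicate 2 and 5.64% of replicate 3, and 3.64% to 4.34% in the other 6 libraries. Macrophage markers, of which 8 of 10 have rows and 0 are at 0 in all libraries, had a summed level in CPM (counts per 1000000 of the library size after edgeR's TMM scaling) of 311 to 711 in the day 6 libraries, 535 to 822 in those of day 16 and 962 to 1538 in those of day 19. Epithelial markers, 8 of 10 with rows, summed to 640 to 689, 1207 to 1295 and 894 to 1377 CPM. The list was mixed: mean CLDN4 was 52.8 CPM at day 6 and 298 at day 16, and mean KRT18 56.3 and 35.5. ESRP1 averaged 66.8, 53.8 and 29.9 CPM on days 6, 16 and 19. Of the 8, edgeR called 2 higher at day 16 against day 6, and 2 higher and 1 lower at day 19 against day 6. Over all genes tested, 5.12% were called higher in the first comparison, and 12.7% higher and 10.2% lower in the second. Of 10 testis germ cell markers 7 have rows, and 3 of these, TNP1, SYCP3 and ODF1, had 0 counts in all libraries, while AKAP4 was at 16.4 to 51.7 CPM in every library and made up most of the list's sum of 17.9 to 53.1 CPM. Day 6 replicate 1 stood apart in smooth muscle markers, all 10 with rows, with a sum of 9619 CPM against 34975 and 28089 in the other replicates of the day. The sum was 21704 to 22930 CPM in the day 16 libraries and 27564 to 45476 in those of day 19. At day 19 against day 6, 2 of the 10 were called higher, where 12.7% of all genes tested were. In whole tissue, fewer cells of a type and less RNA per cell cannot be told apart.

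**Figure D1:**
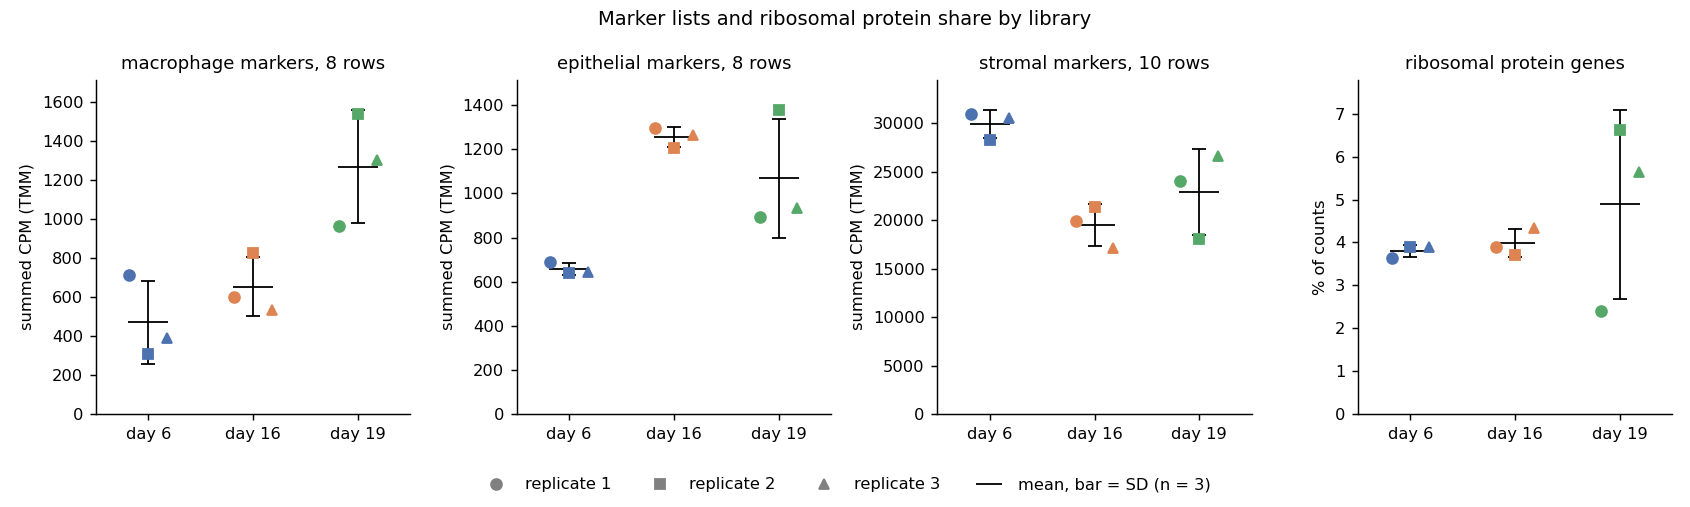
Summed TMM-scaled CPM of the macrophage, epithelial and stromal marker lists, and the percent of counts in ribosomal protein genes, for each library by day; points are libraries, the long bar is the mean and the error bar the SD of 3. Macrophage markers were at 962 CPM or more in the day 19 libraries and at 822 or less in the others, and day 19 replicate 1 had the lowest ribosomal share, 2.42%.

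CST6 and 3 cathepsins, CTSZ, CTSS and CTSH, were higher at day 19 than at day 6. CST6 encodes cystatin E/M, a secreted inhibitor of cathepsins and of legumain, and rose 28.6-fold. CTSZ, a lysosomal carboxypeptidase, rose 3.71-fold, CTSS, a protease of antigen processing, rose 2.06-fold, and CTSH, an aminopeptidase, rose 1.87-fold. CTSB, CTSL, CTSD and CTSK did not pass. Thus 4 of 8 members were called higher and 0 lower, where 22.9% of all 16098 genes tested were called in either direction and 12.7% higher (edgeR quasi-likelihood, Benjamini-Hochberg adjusted p under 0.05). The median log2 fold change of the 8 was 0.96, against 0.02 over all genes tested. The members were chosen with earlier results of these data known, so neither the count nor the median is a test of the set. In DESeq2 the same 4 members passed, where 30.6% of all genes were called, and limma voom with sample quality weights called all 8, CTSK lower and the others higher, where 58.6% were called. For day 16 against day 6, 0 of 8 passed in edgeR, with 3 at an unadjusted p under 0.05, where 8.86% of all genes were called and 5.12% higher. DESeq2 called 1 of them, CST6, and 14.1% of all genes. From day 16 to day 19 CST6 passed in edgeR and DESeq2 and the other 7 did not, where 1.2% of all genes were called in edgeR, 0.516% higher, and 10.9% in DESeq2. These comparisons share libraries and are not independent of each other. Over the day 19 libraries, CST6, CTSZ, CTSH, CTSB, CTSD and CTSL were in the same order as the ribosomal protein share, with replicate 2 highest and replicate 1 lowest. CTSS and CTSK were highest in replicate 1. How many of all genes tested follow that order was not counted, so whether it is particular to the members is not known. The part of the ribosomal protein share in these results was not tested. Fitted on the 2 days alone, the calls of CTSH (adjusted p = 0.102) and CTSS (0.0737) at day 19 against day 6 and of CST6 at day 19 against day 16 were lost, and upper quartile scaling ended that of CTSH (0.0588).

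**Figure D2:**
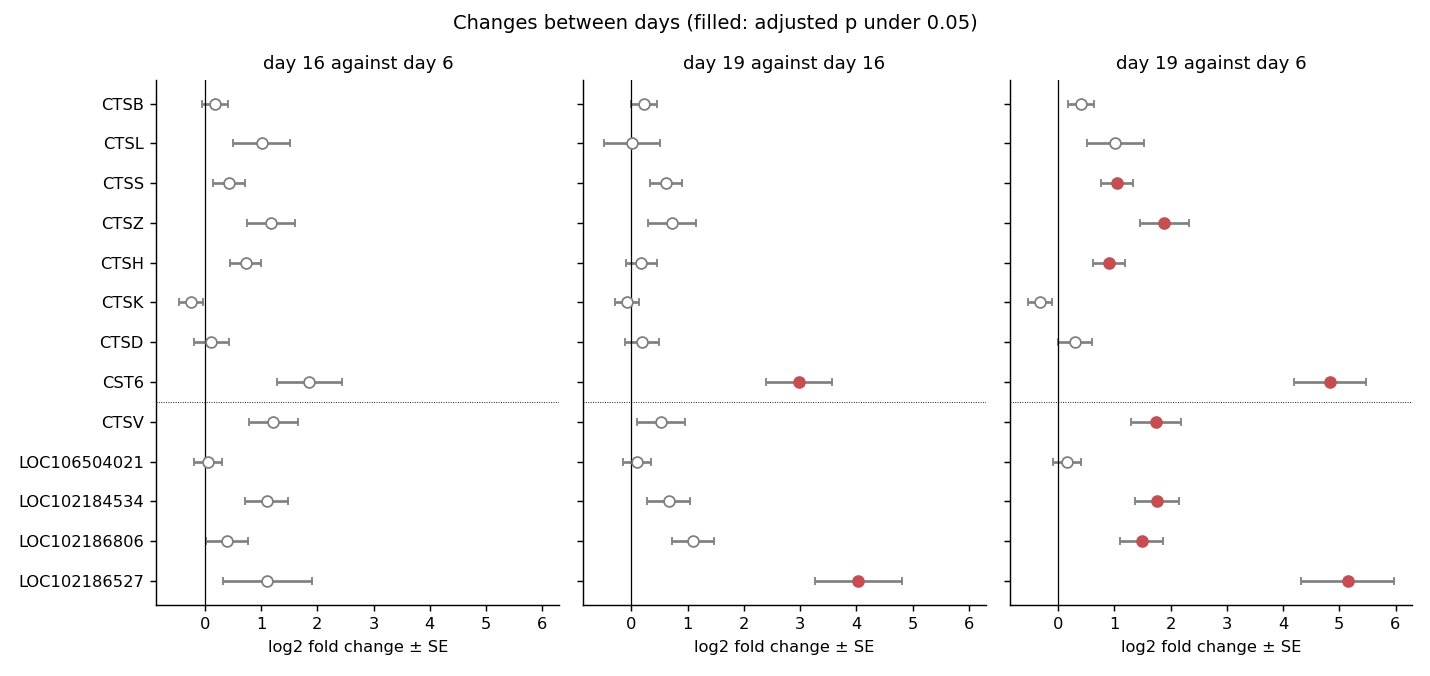
Log2 fold change with its SE for the 8 members (above the dotted line) and for 5 related rows (below it) in the 3 comparisons; filled points passed an adjusted p under 0.05. CST6 and LOC102186527 are the filled points at day 19 against day 16, and 8 rows are filled at day 19 against day 6.

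CST6 is the 1 inhibitor among the 8 members. Its level was 3.16, 5.87 and 8.48 CPM in day 6 replicates 1 to 3, then 21.5, 35.0 and 7.30 at day 16 and 90.3, 229 and 182 at day 19. Every day 19 library stood above every day 16 library, while day 16 replicate 3 lay inside the day 6 range. The counts behind these levels were 178 at day 6, 592 at day 16 and 4941 at day 19. From day 6 to day 19 the log2 fold change was 4.84 (SE 0.64, adjusted p = 0.00105), and the call was kept without each of the 9 libraries in turn, with folds of 23.0 to 37.0. From day 16 to day 19 CST6 rose 7.88-fold (log2 2.98, SE 0.58, adjusted p = 0.0492). That call held without day 19 replicate 1 (adjusted p = 0.00322) and was lost without each of the other 8 libraries: leaving out day 6 replicate 1, 2 or 3 gave an adjusted p of 0.0791, 0.0951 or 0.0922, day 16 replicate 1, 2 or 3 gave 0.146, 0.0907 or 0.175, and day 19 replicate 2 or 3 gave 0.133 or 0.132. The fold stayed between 5.82 and 11.6 across these. At day 16 against day 6 CST6 stood at 21.3 ± 13.8 against 5.84 ± 2.66 CPM (SD, n = 3 each; edgeR adjusted p = 0.086), and it passed in DESeq2 (0.01) and without day 16 replicate 3 (0.0294).

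**Figure D3:**
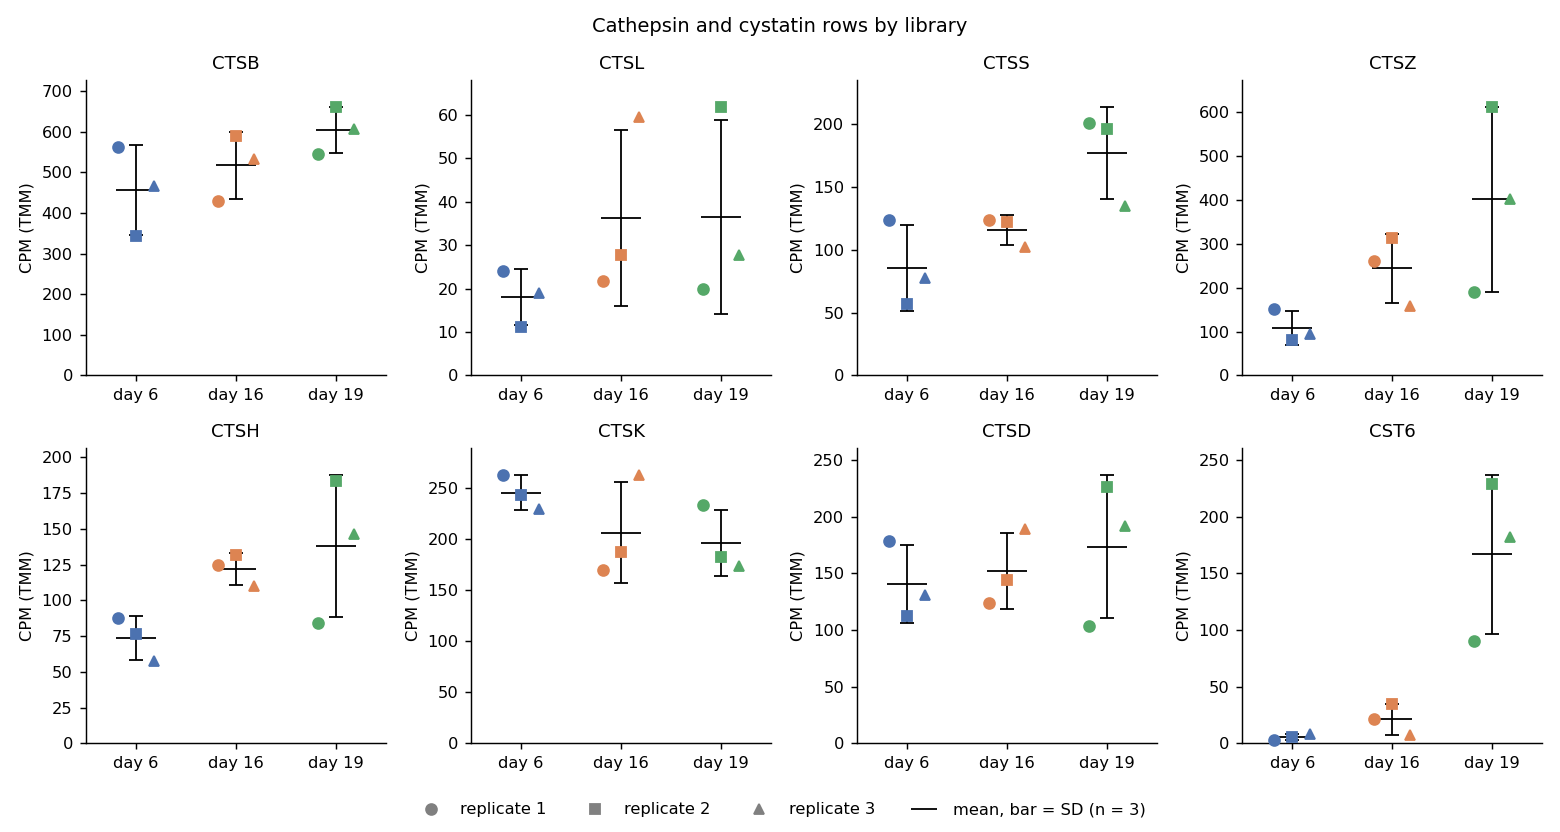
TMM-scaled CPM of the 8 members in each library by day; points are libraries, the long bar is the mean and the error bar the SD of 3, and each panel has its own axis from 0. CST6 was at 90.3 to 229 CPM at day 19 and at 35.0 or less before, while the CTSD, CTSB, CTSL and CTSK libraries of different days overlap.

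CTSZ, also called cathepsin X, removes single residues from the carboxyl end of proteins. It stood at 151, 79.8 and 93.6 CPM in the day 6 libraries, at 261, 313 and 159 at day 16 and at 190, 613 and 401 at day 19. All day 16 and day 19 libraries were above all day 6 libraries, and the days 16 and 19 overlap because day 19 replicate 1 was low. Against day 6, the day 19 change was 1.89 on the log2 scale (SE 0.44, edgeR adjusted p = 0.0148), lost without day 6 replicates 2 (0.0618) and 3 (0.0642). The day 16 change was 1.18 (SE 0.43, adjusted p = 0.144). Without day 19 replicate 1 CTSZ passed in all 3 comparisons, with an edgeR adjusted p of 0.0375 for day 16 against day 6, 0.0381 for day 19 against day 16 and 0.00107 for day 19 against day 6, where 20.4%, 44.7% and 54.2% of all genes were called.

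CTSS degrades the invariant chain of class II molecules in antigen-presenting cells. Its level was 124, 56.7 and 77.3 CPM at day 6, 123, 122 and 102 at day 16 and 201, 196 and 135 at day 19. The day 19 libraries lay above all 6 earlier ones, and day 16 overlapped day 6 through day 6 replicate 1. The change from day 6 to day 19 was 1.04 on the log2 scale (SE 0.29, edgeR adjusted p = 0.0277), lost without day 6 replicates 2 (0.0886) and 3 (0.103) and day 19 replicate 2 (0.0791). From day 16 to day 19 it was 0.61 (SE 0.28, adjusted p = 0.214). Day 6 replicate 1, the highest day 6 library for CTSS, also had the highest day 6 macrophage sum, 711 CPM against 311 and 390. At day 19, replicate 1 had the highest CTSS level and the lowest macrophage sum, 962 CPM against 1538 and 1299. The day 16 sums were 598, 822 and 535 CPM in replicates 1 to 3, where CTSS was at 123, 122 and 102 CPM. Of the 8 macrophage markers with rows, 6 were called higher and 1 lower at day 19 against day 6, where 12.7% and 10.2% of all genes were. The part of these markers in the CTSS result was not tested.

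CTSH is an aminopeptidase that also has endopeptidase activity. It was at 87.4, 76.5 and 57.4 CPM at day 6, at 125, 132 and 110 at day 16 and at 84.4, 183 and 147 at day 19. Day 19 replicate 1 lay inside the day 6 range, and the other libraries of days 16 and 19 lay above it. The day 19 change was 0.90 on the log2 scale (SE 0.28, edgeR adjusted p = 0.0434). That call held without day 19 replicate 1 (0.00063) and was lost without each of the other 8 libraries: leaving out day 6 replicate 1, 2 or 3 gave 0.0692, 0.108 or 0.153, day 16 replicate 1, 2 or 3 gave 0.0679, 0.0654 or 0.0632, and day 19 replicate 2 or 3 gave 0.153 or 0.108. At day 16 against day 6 the groups did not overlap, but the change of 0.73 (SE 0.28, adjusted p = 0.159) did not pass. CTSH and CTSZ were the 2 members higher without overlap in that comparison, where 19.9% of all genes tested were. Between days 16 and 19 these were CTSS and CST6, where 11.9% of all genes were higher without overlap, and between days 6 and 19 CTSS, CTSZ and CST6, where 19.6% were.

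**Figure D4:**
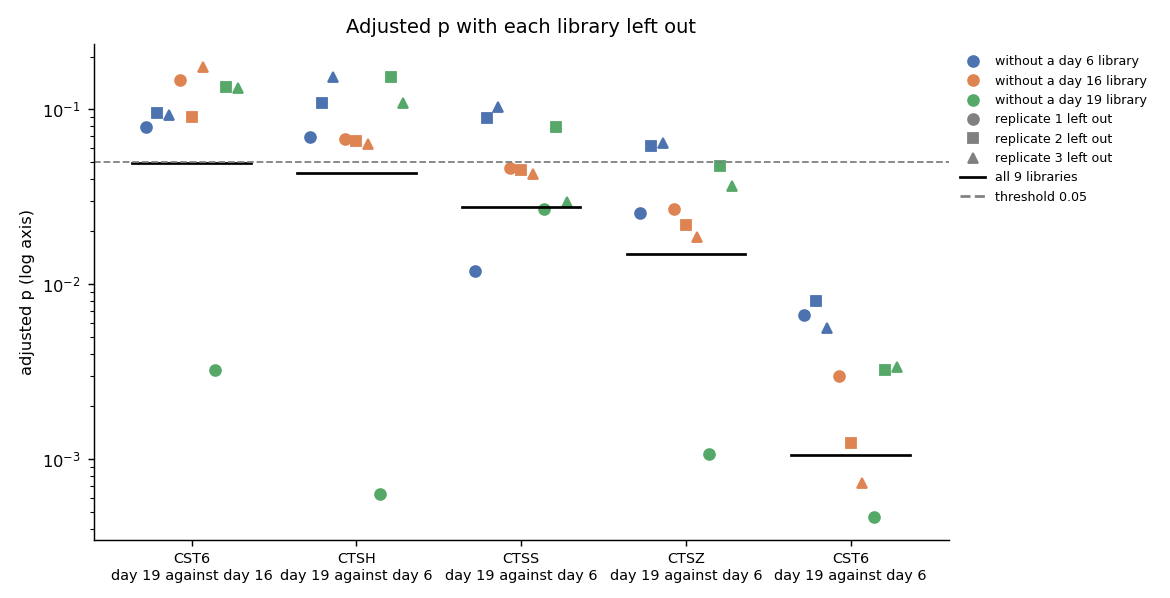
Adjusted p of the called member results with each library left out (log axis); colour gives the day and shape the replicate left out, the black bar is the value with all 9 libraries and the dashed line the threshold of 0.05. CST6 at day 19 against day 6 stayed at 0.00801 or less, and CTSH and the CST6 change from day 16 to day 19 were past the threshold in 1 of 9 cases, without day 19 replicate 1.

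CTSB and CTSL, endopeptidases with broad substrates, did not pass in edgeR. CTSB, which can also remove pairs of residues, was at 562, 342 and 466 CPM at day 6, at 429, 590 and 532 at day 16 and at 545, 660 and 608 at day 19. The days overlap, and the 95% interval of the log2 change from day 6 to day 19 ran from -0.12 to 0.93. CTSL was at 24.0, 11.1 and 18.9 CPM at day 6, at 21.7, 27.8 and 59.4 at day 16 and at 19.9, 61.9 and 27.8 at day 19. Day 16 replicate 3 and day 19 replicate 2 were its high libraries, and 1 library of each later day lay inside the day 6 range. Its log2 change was 1.01 (SE 0.51) at day 16 and 1.02 (SE 0.51) at day 19 against day 6, with adjusted p of 0.303 and 0.17. The 95% interval of the day 19 change ran from -0.12 to 2.16, and without day 19 replicate 2 the fold was 1.33 in place of 2.03.

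CTSD, the aspartic protease of lysosomes, and CTSK, a protease that cuts collagen, did not pass in edgeR either. CTSD was at 179, 112 and 131 CPM at day 6, 124, 144 and 189 at day 16 and 103, 227 and 192 at day 19, with the 95% interval of its log2 change from day 6 to day 19 at -0.39 to 0.99. CTSK was at 263, 243 and 229 CPM at day 6, at 169, 187 and 262 at day 16 and at 233, 182 and 173 at day 19. It was the member with a log2 change below 0 in all 3 comparisons, of -0.25, -0.07 and -0.32, and none of these passed (adjusted p = 0.603, 0.845 and 0.288). Stromal fibroblast markers, all 10 with rows, summed to 28196 to 30900 CPM in the day 6 libraries, 17150 to 21363 in those of day 16 and 18019 to 26650 in those of day 19. COL1A1, COL1A2 and COL3A1 made up most of that sum, and the other markers were mixed. DCN was at 3251 CPM on average at day 6 and 3717 at day 19, and DPT at 167 and 527. PDGFRA was at 382 CPM on average at day 6 and 264 at day 19, and PDGFRB at 188 and 127. Of the 10 markers, edgeR called 1 at day 19 against day 6, which was higher, where 12.7% of all genes were called higher. The part of these markers in the CTSK values was not tested. CTSK is also a defining enzyme of osteoclasts, of which 5 markers have rows. CALCR and OCSTAMP reached at most 0.316 and 0.206 CPM in any library, DCSTAMP 2.11 and TNFRSF11A 2.51, while ACP5, which macrophages also express, was at 161 to 1650 CPM.

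Over the 9 libraries, log2 CPM of CTSK ran against that of every other member (Pearson r of -0.76 to -0.16 over 7 pairs), while the 21 pairs without CTSK had r of 0.25 to 0.93. The highest of these was CTSH with CTSZ. CTSS and CTSK lie near each other in the RefSeq gene table of assembly ARS1.2, with 1 gene between them, and had r = -0.39. These correlations describe 9 libraries that share day and depth. Among 9794 other genes with a symbol and an average log2 CPM of at least 3, the genes most like CST6 were EMP3, PNMT and DNAJC7 (r of 0.98 each). Those most like CTSZ were ARPC1B, CTSV and DCAF13 (0.97 each), and those most like CTSS were EDN1, EFNB1 and ACSL5 (0.98, 0.96 and 0.96). For CTSH they were COG8, MARVELD3 and KAT8 (0.98, 0.97 and 0.96), and for CTSK INPP5E, ZNF397 and PWWP2A (0.94, 0.92 and 0.92). CTSB was most like TMEM186, LIPA and FABP5 (0.96, 0.96 and 0.93), CTSL like GMNN, MCOLN1 and TMEM14A (0.95, 0.92 and 0.91), and CTSD like UBXN11, IRF2BP1 and GDPD3 (0.97, 0.97 and 0.95).

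Rows named by a locus identifier held the cystatins that the list of names missed. They were chosen after their values were seen, as the rows whose deposited description names a cathepsin, cystatin or stefin: 12 such rows, 6 of them at 0 in all libraries and 4 past the filter. LOC102184534, described as cystatin C, the secreted inhibitor encoded by CST3, was at 450, 443 and 480 CPM at day 6, at 1167, 1145 and 631 at day 16 and at 832, 2417 and 1404 at day 19. Every later library stood above every day 6 library. It rose 3.39-fold from day 6 to day 19 (log2 1.76, SE 0.39, edgeR adjusted p = 0.0124; 0.0504 without day 6 replicate 2). The day 16 change was 1.10 (SE 0.39, adjusted p = 0.124). Its lowest later libraries were day 16 replicate 3 and day 19 replicate 1, as for CTSZ.

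LOC102186806, described as cystatin B, was at 105, 91.8 and 96.6 CPM at day 6, at 131, 142 and 111 at day 16 and at 123, 448 and 249 at day 19. It rose 2.80-fold from day 6 to day 19 (log2 1.49, SE 0.38, edgeR adjusted p = 0.0216), a call lost without day 6 replicates 1 (0.064), 2 (0.0765) and 3 (0.0754) and day 19 replicate 2 (0.0578). LOC102186527, described as stefin-C-like, was at 2.13, 1.96 and 0.975 CPM at day 6, at 1.79, 7.75 and 1.62 at day 16 and at 21.6, 116 and 43.7 at day 19. The day 19 libraries stood apart from all others. It rose 35.5-fold from day 6 to day 19 (adjusted p = 0.00265; 19.3-fold without day 19 replicate 2) on 52 and 1796 counts. From day 16 to day 19 it rose 16.4-fold (adjusted p = 0.0468), a call kept without day 19 replicate 1 (0.00158) and lost without each of the other 8 libraries: leaving out day 6 replicate 1, 2 or 3 gave 0.0797, 0.0951 or 0.0922, day 16 replicate 1, 2 or 3 gave 0.144, 0.0773 or 0.181, and day 19 replicate 2 or 3 gave 0.123 or 0.124. The fold was 35.2 without day 16 replicate 2 and 8.92 without day 19 replicate 2.

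The stefin-C-like row held 2.0%, 2.09% and 0.999% of the counts of both stefin rows together in the day 6 libraries and 1.35%, 5.16% and 1.44% at day 16. At day 19 it held 14.9%, 20.5% and 14.9%. This share is taken within a library, so scaling between libraries does not enter it, and day 19 replicate 1 stood beside replicate 3. How the authors' counting treated reads that fit both rows is not given in the sources used here, so the split between them is uncertain. The 3 locus-named cystatin rows were also highest in day 19 replicate 2 and lowest in replicate 1, the order of the ribosomal protein share, whose part in their levels was not tested.

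**Figure D5:**
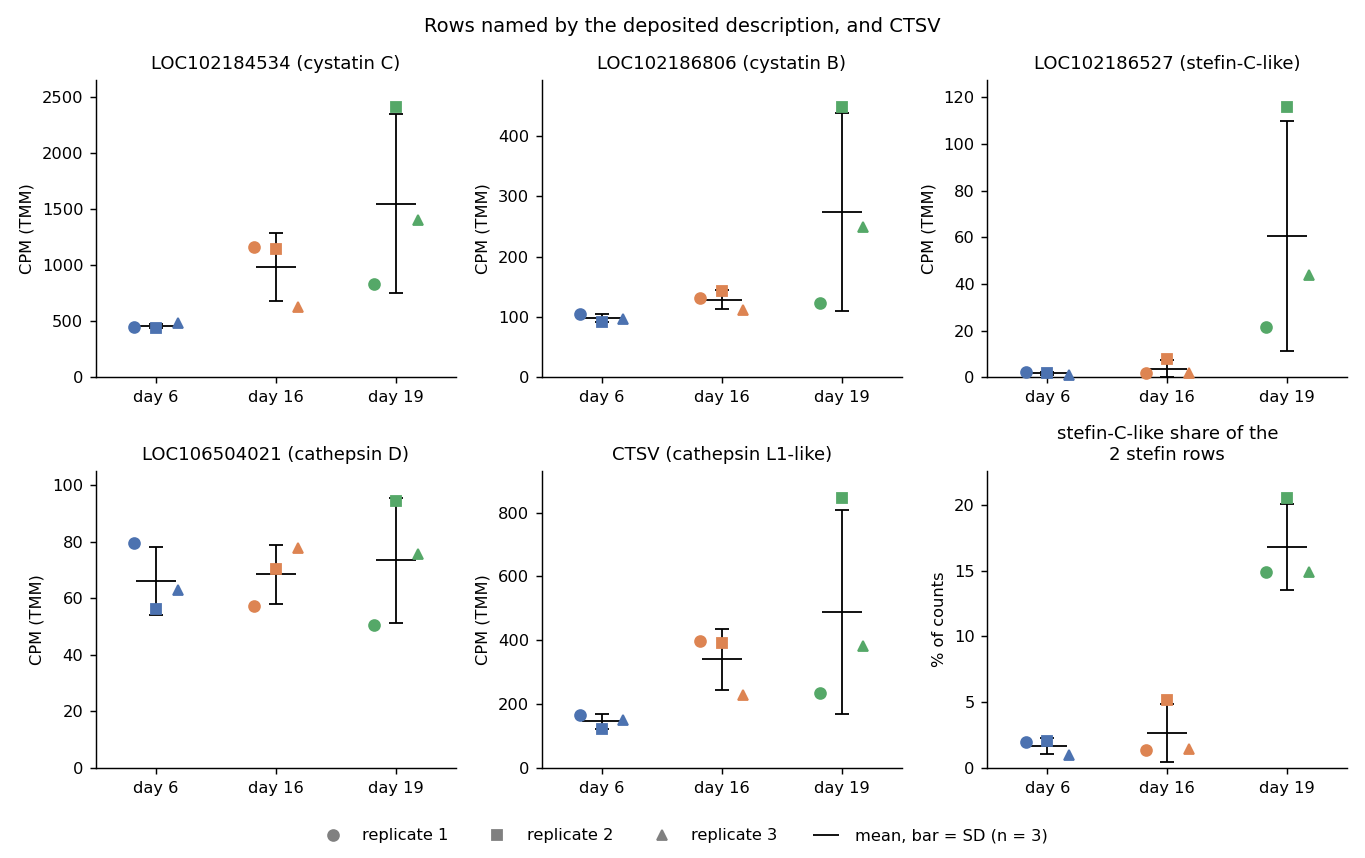
TMM-scaled CPM of 4 rows named by a locus identifier and of CTSV in each library by day, and the percent of the counts of both stefin rows that the stefin-C-like row held; points are libraries, the long bar is the mean and the error bar the SD of 3. The stefin-C-like share was 14.9% to 20.5% at day 19 and 5.16% or less before.

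CTSL and CTSD each have a near namesake. The CTSL row and the CTSV row carry the same description, cathepsin L1-like, so reads could be split between them. CTSV was at 165, 121 and 151 CPM at day 6, at 399, 392 and 229 at day 16 and at 236, 847 and 382 at day 19, and its later libraries did not overlap with day 6. It rose 3.35-fold from day 6 to day 19 (log2 1.74, SE 0.44, edgeR adjusted p = 0.0197; 2.13-fold without day 19 replicate 2), lost without day 6 replicates 1 (0.0559), 2 (0.077) and 3 (0.0677). The CTSL row held 8.39% to 12.7% of the counts of both at day 6, 5.15%, 6.62% and 20.6% at day 16 and 6.79% to 7.79% at day 19. Together they stood at 164 ± 28.9, 376 ± 76.4 and 525 ± 342 CPM (SD, n = 3 each).

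The table describes 2 rows as cathepsin D. The identifier of the CTSD row is not in the RefSeq table used here, and LOC106504021 has the symbol CTSD there. LOC106504021 was at 50.4 to 94.5 CPM over the 9 libraries and passed in none of the 3 comparisons (edgeR adjusted p = 0.952, 0.81 and 0.679). The CTSD row held 66.7% to 71.7% of the counts of both in every library, and their log2 CPM had r = 0.98.

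Of the rest of the families, 6 of 8 other cathepsins and 2 of 10 other cystatins on the list were tested. Besides CTSV, the carboxypeptidase CTSA, the activator of granule proteases CTSC, CTSF, CTSO and the lymphocyte enzyme CTSW passed in none of the comparisons in edgeR. CTSC was at 70.5 ± 12.5, 69.3 ± 12.8 and 95.6 ± 13.2 CPM on days 6, 16 and 19, and CTSF at 225 ± 6.64, 193 ± 27.4 and 209 ± 82.6 (SD, n = 3 each). AHSG, or fetuin-A, a plasma protein of the cystatin superfamily, had 0 counts in the day 6 libraries. It was at 1.47, 12.3 and 0.361 CPM at day 16 and at 2.43, 24.3 and 9.31 at day 19. Set against a floor of 3 counts over the day 6 group, which covers counting error only, AHSG was at least 123-fold higher at day 19, or at least 60.1-fold without day 19 replicate 2 and at least 79.9-fold, 84.1-fold or 81.9-fold with day 6 replicate 1, 2 or 3 left out. Its call (edgeR adjusted p = 0.0228) was lost in each of the last 3 cases, at 0.062, 0.059 and 0.0623. CST7, cystatin F of leukocytes, was at 1.76 ± 0.509, 2.23 ± 1.63 and 4.90 ± 2.33 CPM and did not pass (0.0948 at day 19 against day 6). CSTA had 7 counts in all, and CST11, CSTL1 and HRG had 0.

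The lysosomal genes around the cathepsins were taken from lists of proteases, glycosidases and lipases, delivery, membrane and proton pump, and transcription factors. With the other cathepsins and cystatins, these 7 lists held 84 tested genes, of which 3 were called higher and 2 lower at day 16 against day 6, where 8.86% of all genes were called. By day 19, 10 were higher and 2 lower than at day 6, where 22.9% of all genes were called. Between days 16 and 19, 0 passed in edgeR, with 21 at an unadjusted p under 0.05 and 7 called by DESeq2, where 1.2% of all genes were called in edgeR and 10.9% in DESeq2. Legumain (LGMN), the protease that CST6 also blocks, and the other 7 tested proteases had 0 calls in edgeR in any comparison, with 1, 2 and 3 at an unadjusted p under 0.05 and 0, 0 and 2 by DESeq2. The log2 change of LGMN from day 6 to day 19 was 0.68 (SE 0.30, adjusted p = 0.129). Median log2 changes of the lists of more than 10 tested genes lay between -0.02 and 0.23 in the 3 comparisons. For the smaller lists, medians are given for day 16 against day 6, day 19 against day 16 and day 19 against day 6. They were 0.57, -0.04 and 0.53 for 4 transcription factors and -0.04, 0.01 and -0.06 for 8 proteases. The 6 other cathepsins had 0.04, 0.23 and 0.09. The 2 other cystatins, AHSG and CST7, with few counts at day 6, had 4.44, 1.25 and 5.69.

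Of 26 glycosidases and lipases, NEU1 and GUSB were higher and MAN2B1 lower at both later days than at day 6, where 8.86% of all genes were called at day 16 and 22.9% at day 19. NEU1, a sialidase that forms a complex with CTSA, was at 28.8 ± 2.49, 143 ± 37.4 and 75.8 ± 42.1 CPM (SD, n = 3 each). It rose 4.95-fold by day 16 (edgeR adjusted p = 0.0047), kept without each library, and 2.63-fold by day 19 (0.0222), lost without day 6 replicates 1 (0.0675), 2 (0.0808) and 3 (0.0693) and day 19 replicate 2 (0.055). GUSB, a glucuronidase, rose 3.80-fold by day 16 (0.0402), or 1.93-fold without day 16 replicate 2, where it was at 315 CPM against 85.8 and 75.1 in the other replicates. That call was lost without day 6 replicates 1, 2 and 3 (0.112, 0.146 and 0.137) and day 19 replicates 2 and 3 (0.0512 and 0.0542). By day 19 GUSB rose 4.77-fold (0.0118; 0.0504 without day 6 replicate 2). MAN2B1, a mannosidase, fell by 0.76 on the log2 scale by day 16 (0.0411) and by 0.81 by day 19 (0.0164). The first call held without day 6 replicate 2 or day 19 replicate 1 and was lost without each other library (0.137 or 0.151 for day 6 replicate 1 or 3, 0.0953, 0.154 or 0.129 for day 16 replicate 1, 2 or 3, 0.0558 or 0.0587 for day 19 replicate 2 or 3), and the second was lost without day 6 replicates 1 (0.0562) and 3 (0.0648).

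Of 14 delivery genes, 2 were called higher and 1 lower at day 19 against day 6, where 22.9% of all genes were called. At day 16 against day 6, 1 was called lower, where 8.86% of all genes were called in either direction. M6PR, the cation-dependent mannose 6-phosphate receptor, rose 1.53-fold by day 19 (edgeR adjusted p = 0.0216), from 113 ± 5.14 to 174 ± 20.2 CPM (SD, n = 3 each). NAGPA, which uncovers the mannose 6-phosphate tag, rose 1.82-fold (0.0411), and SORT1, a sorting receptor, fell by 0.75 on the log2 scale (0.0463). IGF2R, the cation-independent mannose 6-phosphate receptor, was named after its values were seen. Its day 6 level of 239 ± 29.7 CPM and its day 19 level of 98.9 ± 77.0 (SD, n = 3 each) did not overlap by library, and the change did not pass (log2 -1.28, SE 0.44, edgeR adjusted p = 0.0621). GGA2, an adaptor of the receptors in the Golgi, fell by 0.77 by day 16 (0.00988; 0.0566 without day 16 replicate 2). The call of M6PR was lost without day 6 replicates 1, 2 and 3 (0.0663, 0.0879 and 0.0792) and day 19 replicate 2 (0.0612). That of NAGPA was lost without each library but day 19 replicate 1 (0.0564 to 0.134), and that of SORT1 without each but day 6 replicate 1 and day 19 replicate 1 (0.0721 to 0.174). Of 24 membrane and pump genes, 3 were called higher and 0 lower at day 19 against day 6, where 12.7% of all genes were called higher. These were the proton pump subunits ATP6V0E1, ATP6V0B and ATP6V1H, which rose 1.89-fold, 1.48-fold and 1.47-fold by day 19 (0.00631, 0.0452 and 0.034). ATP6V0E1 kept its call without each library. ATP6V0B lost it without each but day 19 replicate 1 (0.065 to 0.159), and ATP6V1H without each but day 16 replicate 3 and day 19 replicate 1 (0.056 to 0.116).

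Of 4 tested transcription factors of lysosomal genes, 1 was called higher at day 16 and 1 at day 19 against day 6. Over all genes, 5.12% and 12.7% were called higher in these comparisons. TFEB rose 1.91-fold by day 16, from 8.05 ± 1.40 to 15.4 ± 2.97 CPM (SD, n = 3 each; edgeR adjusted p = 0.0361). Its call held without day 16 replicate 2, day 19 replicate 1 or day 19 replicate 3 and was lost without each other library (0.0629, 0.15 or 0.127 for day 6 replicate 1, 2 or 3, 0.113 or 0.116 for day 16 replicate 1 or 3, 0.051 for day 19 replicate 2). TFEC, a relative expressed in macrophages, rose 5.68-fold by day 19 (0.0306), from 1.14 ± 0.939 to 6.59 ± 4.05 CPM. Its fold was 10.7 without day 6 replicate 1 and 3.68 without day 19 replicate 1, and its call was lost without day 6 replicates 2 (0.106) and 3 (0.109). The macrophage marker sums given above moved over the same days, and their part in the TFEC result was not tested.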

How the data were processed

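Poly(A) RNA was cut with RNase III, ligated to adaptors with an Ion Total RNA-seq kit, per the labels' protocols, and sequenced on an Ion Proton, per the series design text. In 1 table of 9 library columns, the authors deposited raw counts of reads for each gene. Which aligner, counting tool, genome build, annotation and strand setting made them is not given in the sources consulted, so near-identical genes are uncertain one by one. Library totals were 8712751 to 11074693 counts. Of 25671 rows, 4121 had 0 counts in all libraries. Of the 8 member rows, 7 had their identifier in a RefSeq gene table of ARS1.2, used only for names and neighbours.

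Tests used edgeR (4.0.16, R 4.3.3): filterByExpr by day (16098 genes kept), TMM scaling, and a robust quasi-likelihood fit of all 9 libraries with day as its term, with 3 contrasts. The script was tested on simulated data for day 16 against day 6, with the same spread set for every gene and library. That test does not cover the uneven day 19 libraries. A gene is called when its p, adjusted over all genes tested by Benjamini-Hochberg, is under 0.05. The SE is the absolute log2 change divided by the square root of F, and 95% intervals use it. Levels are TMM-scaled CPM, and values in sentences run from replicate 1 to 3. Gene length was not used, so levels are compared within a gene. The shares between rows and the sums of marker lists are taken from counts with no correction for length. Correlations use log2 CPM with a prior count of 2.

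The members and lists were chosen with earlier results of these data known. The genes named were all members, the called list genes (up to 4 per list and comparison with the largest change) and the 3 genes most like each member. Alternatives were RLE and upper quartile scaling, no low-count filter, a stricter one (1 CPM or more in 6 or more libraries), no robust estimation, only the 2 days compared, DESeq2 1.42.0, limma 3.58.1 voom with sample quality weights, the replicate number as a block, and leaving out each library.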

Additional observations from a re-analysis of the deposited data

How the results depend on the processing

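Across 18 alternatives per result, 9 of them leaving out 1 library (17 for AHSG, which the stricter filter removed), no called member or related gene turned its direction. The number of all genes called at day 16 against day 6 was 1427, and 2274 with DESeq2, 3811 with voom and 3092 with only the 2 days compared; without 1 library it was 664 to 3345. At day 19 against day 16 it was 193, and 1747 with DESeq2, 7354 with voom, 0 with only those days (edgeR; 2726 at an unadjusted p under 0.05) and 0 with the replicate block (edgeR; 3572 unadjusted); without 1 library it was 0 to 7331. At day 19 against day 6 it was 3684, and 9433 with voom and 2357 with only those days; without 1 library it was 1928 to 8891. The high ends are without day 19 replicate 1. Of the 8 members, 0 were called at day 16 against day 6, but 1 with DESeq2 (CST6), 2 with voom and 2 with only those days (CTSH and CTSZ), and 0 to 2 without 1 library. At day 19 against day 16, 1 was called, but 2 with voom, 0 with only those days and 0 with the replicate block (each with 2 at an unadjusted p under 0.05), and 0 to 2 without 1 library. At day 19 against day 6, 4 were called, but 8 with voom, 2 with only those days (CST6 and CTSZ), 3 with the replicate block, which lost CTSH (adjusted p = 0.074), and 1 to 4 without 1 library. The cause of these moves was not tested. Deviations of same-numbered libraries from their day's mean correlated at -0.16 to 0.15, above 0.1 in 1 of 9 pairs. Libraries with different numbers were not compared, so this cannot decide whether replicate numbers pair the samples. Signs turned only among changes that did not pass. The log2 change of CTSL at day 19 against day 16 was 0.01, and -0.0074 with upper quartile scaling and -0.011 without the low-count filter; without 1 library it was -0.60 to 0.54. Without 1 library, CTSD ran from -0.054 to 0.33 at day 16 against day 6 and from -0.040 to 0.47 at day 19 against day 16, CTSH from -0.070 to 0.45 and CTSK from -0.20 to 0.12 at day 19 against day 16. LOC106504021 ran from -0.056 to 0.21, -0.11 to 0.33 and -0.063 to 0.37 in the 3 comparisons. Depth limits AHSG, CST7, CSTA and TFEC, which rest on few counts at day 6.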

Other observations

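ACP5, the tartrate-resistant acid phosphatase known in the uterus as uteroferrin and in osteoclasts and macrophages, was chosen after its values were seen. Its day 19 levels were 1650, 399 and 247 CPM in replicates 1, 2 and 3, and it was at 161 to 337 CPM in the 6 libraries of days 6 and 16. Its day 19 change did not pass in edgeR against day 6 (adjusted p = 0.073) or day 16 (0.155). In day 19 replicate 1, CST6, CTSZ, CTSH, CTSB, CTSD, CTSL and the 5 related rows were at their lowest of the day. CTSS and CTSK were at their highest there, at 201 and 233 CPM. How many of all genes tested were lowest in that library was not counted.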
